A study of Mus musculus with 2 samples.

Results

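The genes described here belong to the hypoxia-inducible factor (HIF) system, to its classical hypoxia targets and to glycolysis. They are 41 genes chosen by pathway membership, with earlier results of these data known. They divide into 7 HIF regulators, 24 genes of glucose uptake, glycolysis and pyruvate handling, and 10 other hypoxia targets. On the array, 18193 genes had a probe set of their own. Probe sets that the platform annotation assigns to exactly 1 gene were found for 38 of the 41, through 88 probe sets. Bnip3l, Gpi1 and Eno1 had no probe set of their own in the annotation and were not analysed here.

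Both samples were CD34+ epithelial cells sorted from mouse skin tumours, 1 from a K14CreER:Rosa-VEGF-164 mouse and 1 from a wild-type mouse, each measured on 1 Affymetrix Mouse Genome 430 2.0 array. The K14CreER:Rosa-VEGF-164 mouse is labelled a VEGF gain of function, in which a keratin 14 promoter drives an inducible Cre recombinase and so targets the VEGF-164 gene to keratin 14-expressing epithelium. The labels give the second mouse only as wild type, and they do not say how many tumours or animals were pooled for an array. Both mice received the carcinogen DMBA on postnatal days 23, 25 and 27 and again at 7 weeks of age, with repeated doses of the tumour promoter TPA. The arrays are called the VEGF-labelled array and the wild-type array below. Vegfa, itself a hypoxia target, had a signal of 397 on the VEGF-labelled array and 804 on the wild-type array, and since it is not known here whether its probe sets read the transgene, it does not check the label.

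HIF is a transcription factor made of an oxygen-regulated α subunit, encoded by Hif1a or Epas1, and a stable partner encoded by Arnt. When oxygen is plentiful, prolyl hydroxylases of the Egln family mark the α subunit and the Vhl protein directs its destruction, so most of HIF-1α control acts on the protein and is not read by an array of transcripts. When oxygen is scarce, HIF raises genes of glucose uptake, glycolysis, acid export, mitophagy and collagen modification, and in solid tumours some of these, such as Car9, serve as stains for poorly perfused areas.

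Most of these genes had lower signals on the VEGF-labelled array. Of the 38 measured, 35 had a log2 ratio below 0, against 52.9% of all genes with a fold. At least 2-fold lower were 8, and 0 were at least 2-fold higher, where 8.53% and 3.87% of all 12198 genes with a fold passed the same limits. After quantile normalization the shares were 4.73% lower and 4.94% higher over all genes, with 7 members lower and 0 higher. With matched array medians and an offset of 50, 24 of the 38 were below 0 and 4 were at least 2-fold lower, where 0.467% of all genes were, and their median log2 ratio was -0.10 against 0.11 over all genes. As deposited, the median log2 ratio of the 38 was -0.55, against -0.04 over all genes. The genes were chosen with earlier results of these data known, so these comparisons with all genes describe and do not test. The 8 at least 2-fold lower as deposited were Car9, Egln3, Bnip3, Pdk1, P4ha2, Ndrg1, Egln1 and Eno2.

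The values are signals of the MAS5 method on a linear scale, and each ratio is the VEGF-labelled over the wild-type array for the gene's brightest probe set. With 1 array per genotype there is no replicate error and no test between the genotypes. The only error at hand is the disagreement between probe sets of 1 gene, an SD of 0.50, 0.42 and 0.32 for a single log2 ratio in bands of mean signal below 87.0, up to 213 and above it. It holds neither the spread between animals, tumours and sorts nor errors shared by an array. All 38 genes lay above background on both arrays. Of these, 14 had a ratio beyond 2 such SDs, all of them lower, and 12 had a ratio within 1 SD. No share of all genes beyond these SD limits is at hand for comparison. In bulk samples, fewer cells of a type and less RNA per cell cannot be told apart. The excess of lower genes was largest among dim genes over the whole array, where 15.3% of those in the lowest band were at least 2-fold lower, against 3.4% in the highest. Of the members, 24 were in that highest band, and 6 of them were at least 2-fold lower. In the middle band 1 of 7 members was, against 3.44% of all genes there, and in the lowest band 1 of 7.

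The promoters of the 4 members with the lowest ratios are shown, a choice made from these same data. These genes are known to be induced by HIF, and its part in their lower signals was not tested. HIF binds short sites with the core ACGTG or GCGTG. Each run covers 250 bases before and 50 after a gene's start, from RefSeq on GRCm38.p6, 5′ to 3′ on the gene's strand, with matches to either core on either strand in capitals (CACGT and CACGC are the reverse complements). Car9 is at chr4:43506776-43507075 on the + strand, Egln3 at chr12:54203825-54204124 on the - strand, Bnip3 at chr7:138909457-138909756 on the - strand and Pdk1 at chr2:71872974-71873273 on the + strand, the one of 2 Pdk1 windows that lies at the gene's outermost start.
Car9: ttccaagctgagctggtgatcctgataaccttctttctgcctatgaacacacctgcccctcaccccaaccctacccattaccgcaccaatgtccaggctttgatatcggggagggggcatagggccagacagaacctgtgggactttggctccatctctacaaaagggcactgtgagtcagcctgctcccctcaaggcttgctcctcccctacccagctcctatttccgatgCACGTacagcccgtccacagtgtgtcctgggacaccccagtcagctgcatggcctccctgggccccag
Egln3: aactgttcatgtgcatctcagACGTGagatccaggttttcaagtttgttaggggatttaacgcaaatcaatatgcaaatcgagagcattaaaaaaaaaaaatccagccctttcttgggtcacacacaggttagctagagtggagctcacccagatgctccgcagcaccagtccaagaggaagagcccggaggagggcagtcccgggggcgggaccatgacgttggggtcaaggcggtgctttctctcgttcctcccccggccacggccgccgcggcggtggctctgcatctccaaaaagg
Bnip3: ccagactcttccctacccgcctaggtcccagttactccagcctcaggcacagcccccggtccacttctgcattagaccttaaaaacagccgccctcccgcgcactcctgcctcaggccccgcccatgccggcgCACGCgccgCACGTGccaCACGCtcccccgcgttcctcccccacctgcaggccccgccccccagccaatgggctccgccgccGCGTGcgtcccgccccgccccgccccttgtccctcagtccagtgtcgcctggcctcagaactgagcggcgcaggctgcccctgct
Pdk1: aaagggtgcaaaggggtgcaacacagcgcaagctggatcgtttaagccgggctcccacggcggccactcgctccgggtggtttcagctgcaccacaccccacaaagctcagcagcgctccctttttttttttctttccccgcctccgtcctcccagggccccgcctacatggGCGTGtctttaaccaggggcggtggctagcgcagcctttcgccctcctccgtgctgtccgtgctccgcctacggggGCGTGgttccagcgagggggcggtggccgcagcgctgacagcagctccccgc
In Car9 the single ACGTG match began 18 bases before the start, on the reverse strand. In Egln3 the single match began 229 bases before the start. Bnip3 held 2 overlapping ACGTG matches, the 2 strands of 1 palindrome that is also the E-box letters CACGTG, and 3 GCGTG matches within the 117 bases before the start. Pdk1 held 2 GCGTG matches, 78 and 2 bases before the start. Promoter windows were found for 37 of the 41 genes, 52 windows in all, with Epas1, Ndrg1, Slc2a3 and Bnip3l missing. Either core was present in 43 of the 52, or 82.7%, against 43.8% of all 32851 windows. Member windows had a median of 20 CpG dinucleotides against 7 over all windows, and among all windows with 12 to 25 CpGs, the interquartile range of the member windows, 65.8% held either core. ACGTG alone was in 55.8% of member windows, 27.4% of windows with 12 to 25 CpGs and 19.6% of all windows. The member shares are over all 52 windows, which had 0 to 60 CpGs, so the CpG ranges are not alike. Some genes had several windows, and the members include known HIF targets, so these shares describe and do not test. Either core was in 6 of 8 windows of genes at least 2-fold lower and in 37 of 44 windows of the other members. A match is a string of letters and not a measured binding site.

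**Figure D1:**
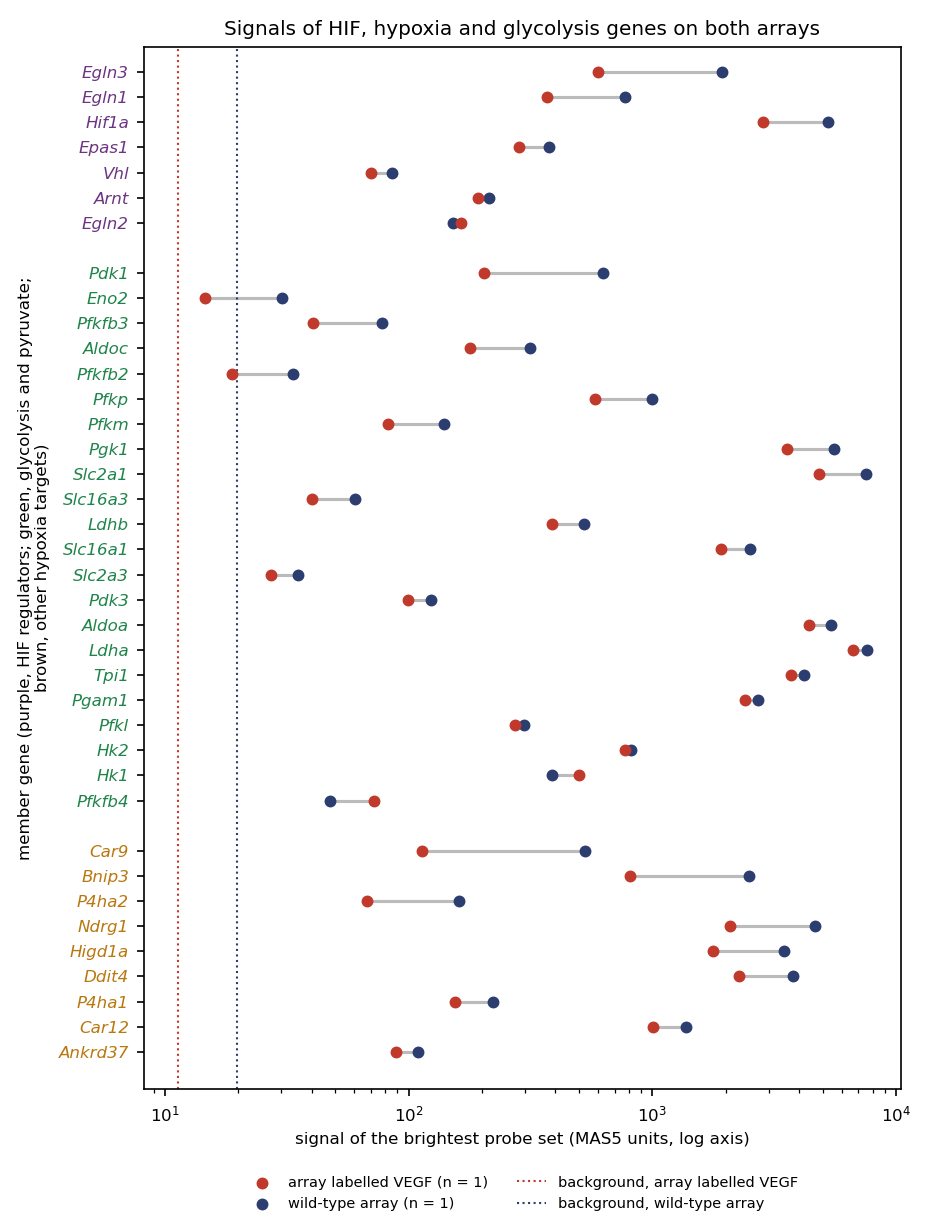
Signals of the 38 measured genes on a log axis, in MAS5 units, red for the VEGF-labelled array and blue for the wild-type array, with dotted lines at each array's background (11.3 and 19.8). In 35 of 38 rows the red point lies left of the blue one, with the widest gap for Car9.

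Among the HIF regulators, Hif1a and 2 of the 3 prolyl hydroxylase genes had the lowest ratios. The rest had log2 ratios between -0.40 and 0.11. Hif1a, which encodes HIF-1α, had a signal of 2838 on the VEGF-labelled array and 5236 on the wild-type array, a log2 ratio of -0.88. Its other probe sets above background gave -0.99 and -0.65, so all 3 lay on the same side and none reached 2-fold. Epas1, which encodes the HIF-2α subunit, had signals of 284 on the VEGF-labelled array and 375 on the wild-type array, a log2 ratio of -0.40. Its second probe set gave -0.24. Arnt, the shared β subunit, had 192 on the VEGF-labelled array and 214 on the wild-type array (log2 ratio -0.16). The probe sets of Arnt disagreed in direction, between -0.37 and 0.49, so no direction is given for it. Vhl, which encodes the ubiquitin ligase subunit that recognises hydroxylated HIF-α, had 70.3 on the VEGF-labelled array and 85.7 on the wild-type array (log2 ratio -0.29). A second Vhl probe set was below background on the VEGF-labelled array, with 5.56 on the VEGF-labelled array and 26.4 on the wild-type array, so the size of the Vhl difference is uncertain.

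The 3 prolyl hydroxylase genes differed among themselves. Egln3, which encodes PHD3 and is itself strongly induced by HIF, had 596 on the VEGF-labelled array and 1935 on the wild-type array, 3.25-fold lower. Its other probe set had 97.0 on the VEGF-labelled array and 383 on the wild-type array, a log2 ratio of -1.98 against -1.70 for the brighter one. Both probe sets therefore put Egln3 at more than 2-fold lower. Egln1, which encodes PHD2, the main oxygen sensor of most cells and a milder HIF target, had 368 on the VEGF-labelled array and 771 on the wild-type array, 2.09-fold lower. Its other probe set gave a log2 ratio of -0.87, just short of 2-fold. Egln2, which encodes PHD1 and is not known as a hypoxia-induced gene, had 164 on the VEGF-labelled array and 152 on the wild-type array (log2 ratio 0.11), within the probe set SD of 0.42. The median log2 ratio of the 7 regulators was -0.40, and 2 of them passed 2-fold, both downward. Over all genes with a fold, 8.53% were at least 2-fold lower.

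Hypoxia targets outside glycolysis had the lowest median of the 3 classes. All 9 measured had a log2 ratio below 0, 4 were at least 2-fold lower, and the median was -0.96. Over all genes with a fold, 52.9% were below 0 and 8.53% were at least 2-fold lower. Car9, which encodes the cell-surface carbonic anhydrase IX that helps hypoxic cells to control pH, had 113 on the VEGF-labelled array and 530 on the wild-type array, 4.68-fold lower and the lowest ratio of the 38. Car12, which encodes a related membrane carbonic anhydrase, had 1008 on the VEGF-labelled array and 1375 on the wild-type array (log2 ratio -0.45). A dimmer Car12 probe set, one that may cross-hybridise with other transcripts, gave -1.39, so its size depends on the probe set while its direction does not. Bnip3, which encodes a mitochondrial protein of mitophagy and cell death, had 813 on the VEGF-labelled array and 2494 on the wild-type array, 3.07-fold lower. It was read by 1 probe set. Higd1a, which encodes a small mitochondrial protein induced by hypoxia, had 1778 on the VEGF-labelled array and 3451 on the wild-type array, a log2 ratio of -0.96. Its second probe set gave -1.20, so Higd1a sat at the edge of the 2-fold limit.

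Ndrg1, a stress- and differentiation-linked gene induced by hypoxia, had 2079 on the VEGF-labelled array and 4663 on the wild-type array, 2.24-fold lower. Its 4 other probe sets were all lower, with log2 ratios between -1.16 and -0.25. Of the 5, only 2 passed 2-fold, and both are of the design classes that may cross-hybridise. P4ha2 and P4ha1 encode the catalytic subunits of collagen prolyl 4-hydroxylase. P4ha2 had 67.7 on the VEGF-labelled array and 161 on the wild-type array, 2.38-fold lower. P4ha1 had 156 on the VEGF-labelled array and 223 on the wild-type array (log2 ratio -0.52), with -0.75 for its other probe set. Ddit4, which encodes REDD1, an inhibitor of mTORC1 signalling that answers to hypoxia and to other stresses, had 2257 on the VEGF-labelled array and 3784 on the wild-type array (log2 ratio -0.75). Ankrd37, which encodes an ankyrin repeat protein and is a HIF target, had 88.9 on the VEGF-labelled array and 110 on the wild-type array (log2 ratio -0.30), within the probe set SD of 0.42.

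**Figure D2:**
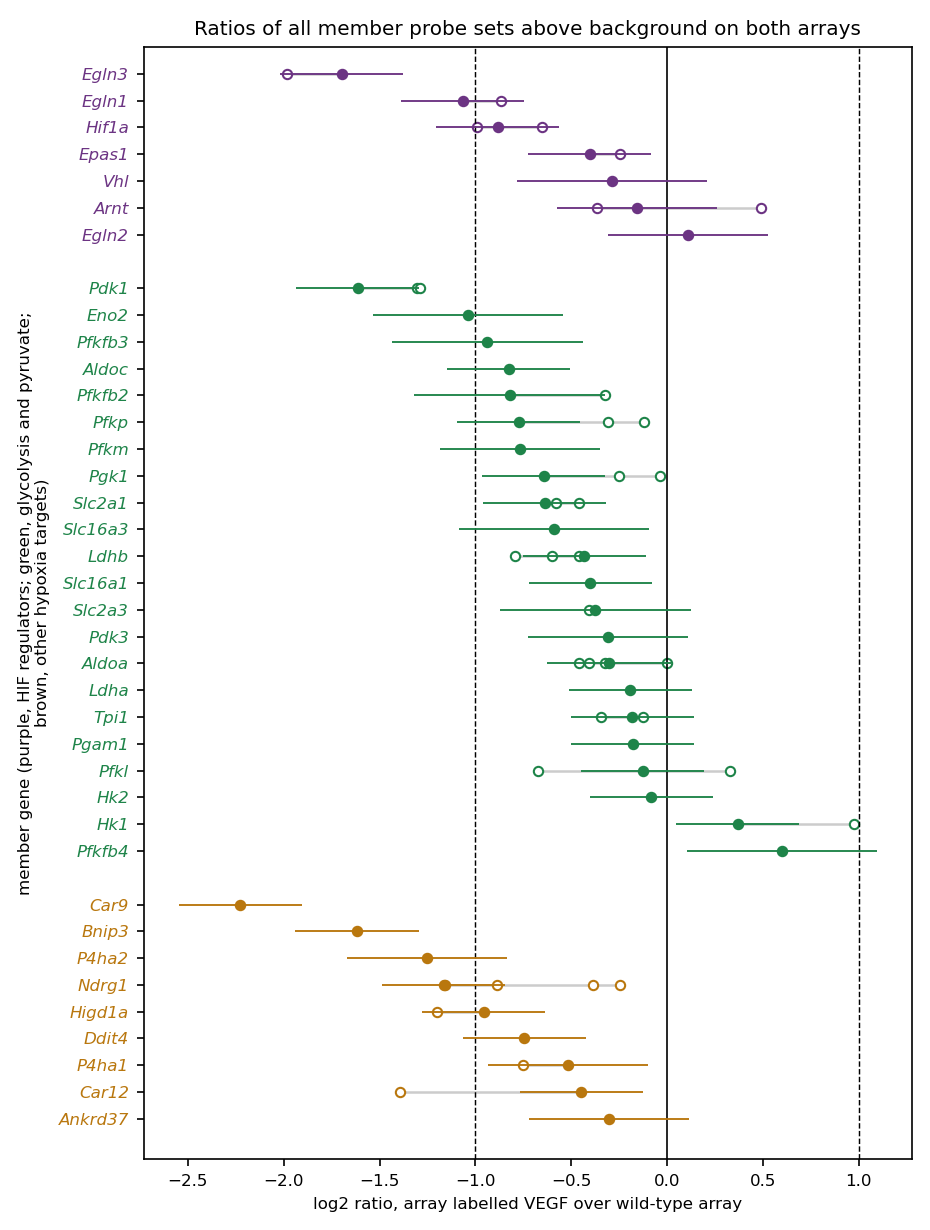
Log2 ratios of the member probe sets above background on both arrays, filled for the brightest of a gene (bar, 1 SD between probe sets of the same gene at that signal) and open for the others, with dashed lines at 2-fold. Of 74 such probe sets 67 lie below 0, and only 3 genes (Arnt, Pfkl and Aldoa) have them on both sides of 0.

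Taking every probe set on its own gave the same picture. Of the 74 member probe sets above background on both arrays, 67 had a ratio below 0, against 55.5% of all named probe sets above background on both arrays. At least 2-fold lower were 14 of the 74, against 8.1% of all, and 0 were at least 2-fold higher, against 3.11% of all. Of 20 genes with several such probe sets, 16 had all of them below 0, 1 (Hk1) had all above 0, and 3 had both. Probe sets of 1 gene share its transcripts and are not independent.

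Glycolysis turns glucose into pyruvate, and the genes are taken here in the order of the pathway. Of the 22 measured genes of glucose uptake, glycolysis and pyruvate handling, 20 had a ratio below 0, but only Pdk1 and Eno2 were at least 2-fold lower and 0 were at least 2-fold higher. That is 9.09% of the 22, near the 8.53% of all genes with a fold. The median log2 ratio was -0.42 against -0.04 over all genes, and with the offset -0.02 against 0.11 over all genes. At 1.5-fold, 10 were lower and 1 higher, where 20% and 11.6% of all genes with a fold passed.

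Glucose enters through transporters. Slc2a1, which encodes GLUT1, the main glucose transporter of keratinocytes, had 4845 on the VEGF-labelled array and 7545 on the wild-type array (log2 ratio -0.64). Its other probe sets gave -0.58 and -0.46, so all 3 were lower and none reached 2-fold. Slc2a3, which encodes GLUT3, was dim, with 27.2 on the VEGF-labelled array and 35.2 on the wild-type array (log2 ratio -0.37). The hexokinases, which trap glucose as its phosphate, were near equal or higher. Hk2, the hypoxia-inducible form, had 769 on the VEGF-labelled array and 814 on the wild-type array (log2 ratio -0.08). Hk1, the widely expressed form, had 499 on the VEGF-labelled array and 387 on the wild-type array, a log2 ratio of 0.37. Its other probe set gave 0.97 but was dim, with 39.9 on the VEGF-labelled array. On the wild-type array that probe set had 20.3, close to the background of 19.8. Hk1 was thus 1 of only 3 members above 0.

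The phosphofructokinases catalyse the committed step, and their isoforms differed. Pfkp, the platelet-type subunit, had 581 on the VEGF-labelled array and 993 on the wild-type array (log2 ratio -0.77), although its dimmer probe sets gave only -0.31 and -0.12. Pfkm, the muscle-type subunit, had 82.0 on the VEGF-labelled array and 140 on the wild-type array (log2 ratio -0.77). Pfkl, the liver-type subunit, had 274 on the VEGF-labelled array and 299 on the wild-type array (log2 ratio -0.13), with probe sets between -0.67 and 0.33 that gave no single direction. The Pfkfb genes encode the bifunctional enzymes that set fructose 2,6-bisphosphate, the activator of phosphofructokinase. Pfkfb3, which favours its synthesis and is a HIF target, had 40.6 on the VEGF-labelled array and 77.7 on the wild-type array (log2 ratio -0.94). Pfkfb4, also known as hypoxia-inducible, went the other way, with 72.2 on the VEGF-labelled array and 47.7 on the wild-type array (log2 ratio 0.60), the highest ratio of the 38. Pfkfb2 was near background, with 19.0 on the VEGF-labelled array and 33.5 on the wild-type array (log2 ratio -0.82), and its other probe set above background on both arrays gave -0.33. All 3 were in the lowest signal band, where the probe set SD was 0.50.

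From aldolase to enolase the 6 members with a fold had log2 ratios between -1.04 and -0.18 as deposited. Those of Aldoa, Tpi1 and Pgam1 were above 0 with the offset, where the median of all genes was 0.11. Aldoa, the main aldolase gene, had 4391 on the VEGF-labelled array and 5419 on the wild-type array (log2 ratio -0.30). The 4 dimmer Aldoa probe sets ran from -0.46 to 0.00. Aldoc, the aldolase gene known chiefly from brain, had 178 on the VEGF-labelled array and 315 on the wild-type array (log2 ratio -0.83), lower by more than Aldoa. Tpi1, which encodes triosephosphate isomerase, had 3688 on the VEGF-labelled array and 4181 on the wild-type array (log2 ratio -0.18). Its probe sets lay between -0.35 and -0.13. Pgk1, which encodes phosphoglycerate kinase and is a textbook HIF target, had 3555 on the VEGF-labelled array and 5555 on the wild-type array (log2 ratio -0.64). The other Pgk1 probe sets gave -0.25 and -0.04, so the size of this difference rests on a probe set that may cross-hybridise. Pgam1, which encodes phosphoglycerate mutase, had 2401 on the VEGF-labelled array and 2718 on the wild-type array (log2 ratio -0.18). Eno2, the enolase gene known from neurons, was 2.05-fold lower but dim, with 14.7 on the VEGF-labelled array and 30.1 on the wild-type array. With a common background of 19.8 on both arrays Eno2 kept only a bound, a log2 ratio of -0.60.

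At the fate of pyruvate, Pdk1 stood apart from the rest of the glycolysis list. Pdk1 encodes a kinase that shuts off pyruvate dehydrogenase and so keeps pyruvate out of the tricarboxylic acid cycle in hypoxia. It had 204 on the VEGF-labelled array and 626 on the wild-type array, 3.06-fold lower. Its 2 other probe sets above background on both arrays gave -1.31 and -1.29, all beyond 2-fold. Its dimmest probe set was below background on the VEGF-labelled array, with 2.99 on the VEGF-labelled array and 48.5 on the wild-type array, a bound of -2.10. Pdk3, a second kinase of the same family, had 99.5 on the VEGF-labelled array and 123 on the wild-type array (log2 ratio -0.31). Ldha, which encodes the lactate dehydrogenase subunit that favours lactate production, had 6640 on the VEGF-labelled array and 7584 on the wild-type array (log2 ratio -0.19). Ldhb, the heart-type subunit gene, had 387 on the VEGF-labelled array and 522 on the wild-type array (log2 ratio -0.43). Its 3 dimmer probe sets ran from -0.79 to -0.46. The monocarboxylate transporter gene Slc16a1 (MCT1) had 1913 on the VEGF-labelled array and 2525 on the wild-type array (log2 ratio -0.40). Slc16a3, which encodes the hypoxia-inducible lactate exporter MCT4, had 40.1 on the VEGF-labelled array and 60.3 on the wild-type array (log2 ratio -0.59).

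**Figure D3:**
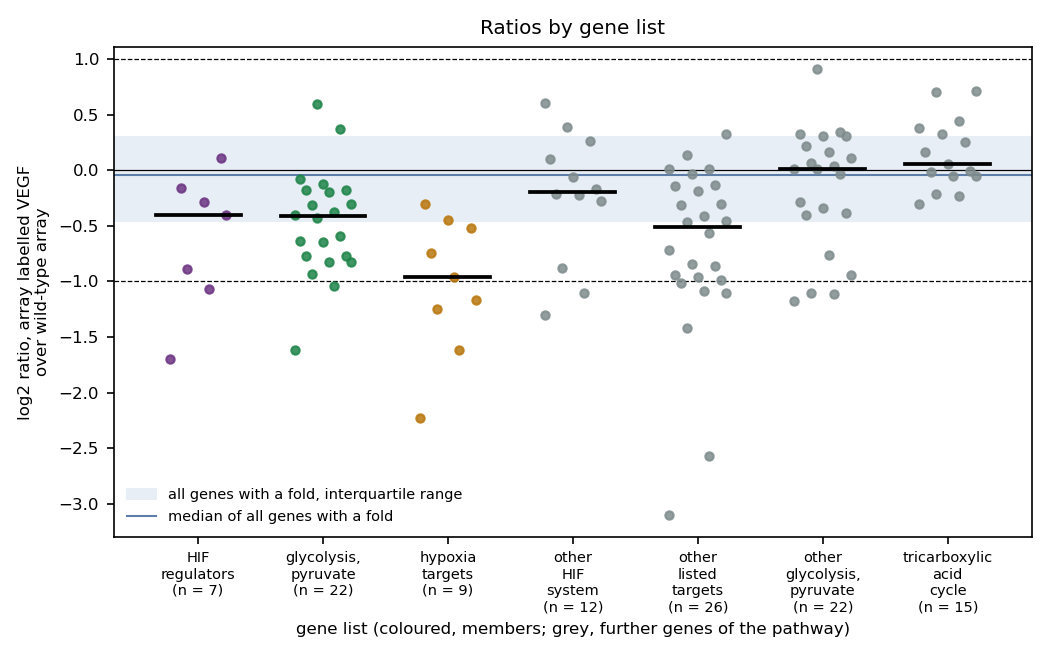
Log2 ratios of single genes by list, members in colour and further pathway genes in grey, with a black bar at each list's median, a blue line and band at the median and interquartile range of all genes with a fold, and dashed lines at 2-fold. Bounds are drawn at their bound (Rbx1, Hk3 and Slc16a7), and the tricarboxylic acid cycle genes lie around 0 while the hypoxia targets lie lowest among the members.

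A set of 91 further genes of the same pathways was read the same way. Over all genes with a fold, 8.53% passed 2-fold downward and 3.87% upward, and 52.9% were below 0. Of 26 other hypoxia-linked targets with a fold, 6 passed 2-fold downward and 0 upward, with 22 below 0 and a median log2 ratio of -0.51. The lowest was Pgf, which encodes placental growth factor of the VEGF family, 8.56-fold lower with a signal of 96.3 on the VEGF-labelled array and 824 on the wild-type array. Selenbp1, which encodes a selenium-binding protein and is not chiefly a hypoxia gene, was 5.92-fold lower. Gys1, which encodes glycogen synthase, was 2.67-fold lower, and Kdm4b, a histone demethylase gene, 2.15-fold. Signals of Selenbp1 were 35.2 on the VEGF-labelled array and 208 on the wild-type array, and of Kdm4b 20.2 and 43.5 in that order. These 2 were in the lowest signal band, where 15.3% of all genes were at least 2-fold lower. Fam162a, a HIF-induced mitochondrial gene, had 3975 on the VEGF-labelled array and 7863 on the wild-type array, a log2 ratio of -0.98. Some known targets were near equal, such as Bhlhe40 (log2 ratio 0.01), a transcriptional repressor gene induced by HIF, and Kdm3a (0.14), a histone demethylase gene; both were chosen after their values were seen.

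The median log2 ratio of 12 other genes of the HIF system was -0.19. Of these, 2 passed 2-fold downward and 0 upward, against 8.53% and 3.87% of all genes with a fold. These 2 were Hif1an, which encodes the asparaginyl hydroxylase FIH that blocks HIF-α activity, 2.46-fold lower (33.1 on the VEGF-labelled array and 81.3 on the wild-type array), and Hif3a, which encodes a further α subunit, 2.15-fold lower (24.1 and 51.6 in the same order). Both were in the lowest signal band. Crebbp, which encodes a HIF co-activator, had 402 on the VEGF-labelled array and 335 on the wild-type array (log2 ratio 0.26).

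Other genes of glycolysis and pyruvate entry were centred near 0. Of 22 with a fold, 10 were below 0 and 12 above, with a median of 0.01. The 3 that were at least 2-fold lower, Eno3, Slc2a12 and Pdk4, had signals of 13.5 to 21.0 on the VEGF-labelled array, close to its background of 11.3. Pkm, the pyruvate kinase gene, had 2223 on the VEGF-labelled array and 1981 on the wild-type array (log2 ratio 0.17). Of 15 genes of the tricarboxylic acid cycle, the mitochondrial pathway downstream, 0 were 2-fold apart, 8 were above 0 and the median was 0.06. Mdh2, which encodes mitochondrial malate dehydrogenase, had 3886 on the VEGF-labelled array and 3931 on the wild-type array. These genes were on the same 2 arrays as the members, and the difference between the lists was not tested.

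Over the whole series, 65.2% of named probe sets on the VEGF-labelled array and 58.3% on the wild-type array lay above background. Signals at the 3′ end over those at the 5′ end of the actin control transcript were 1.45 on the VEGF-labelled array and 2.01 on the wild-type array, and for the Gapdh control 0.91 and 1.15 in that order. All 6 epithelial markers were above background on both arrays, with a summed signal of 24528 on the VEGF-labelled array and 25642 on the wild-type array, to which Krt14 and Krt5 gave most. Single markers differed by more than the sum: Cd34, the surface antigen in the labels, had 751 on the VEGF-labelled array and 430.3 on the wild-type array, and Itga6 had 2421 on the VEGF-labelled array and 3952 on the wild-type array. Of 9 suprabasal and cornified keratinocyte genes with a fold, 6 were at least 2-fold higher and 0 lower, against 3.87% and 8.53% of all genes. This list summed to 15593 on the VEGF-labelled array and 11825 on the wild-type array. Of 9 fibroblast markers 2 were at least 2-fold higher. The count was 5 of 9 at 1.5-fold, where 11.6% of all genes with a fold were higher, and the list's median log2 ratio was 0.80. Their sums were 3698 on the VEGF-labelled array and 3045 on the wild-type array, and Postn, with 798 on the VEGF-labelled array and 1595 on the wild-type array, was the 1 marker at least 1.5-fold lower. Leukocyte markers summed to 405 on the VEGF-labelled array and 380 on the wild-type array over 11 genes. Ptprc had 17.3 and 14.4 in that order. Of 8 leukocyte markers with a fold, 3 were at least 1.5-fold lower and 3 higher, against 20% and 11.6% of all genes. Endothelial markers summed to 236 on the VEGF-labelled array and 199.7 on the wild-type array over 9 genes. Of these 9, 7 were above background on the VEGF-labelled array and 4 on the wild-type array. Of 7 endothelial markers with a fold, 2 were at least 1.5-fold lower and 1 higher. All 3 measured erythroid markers were below background on both arrays. Of 5 cycling-cell markers 4 were above 0, with a median log2 ratio of 0.20. The part of these markers and of the 3′ to 5′ ratios in the lower hypoxia genes was not tested.

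**Figure D4:**
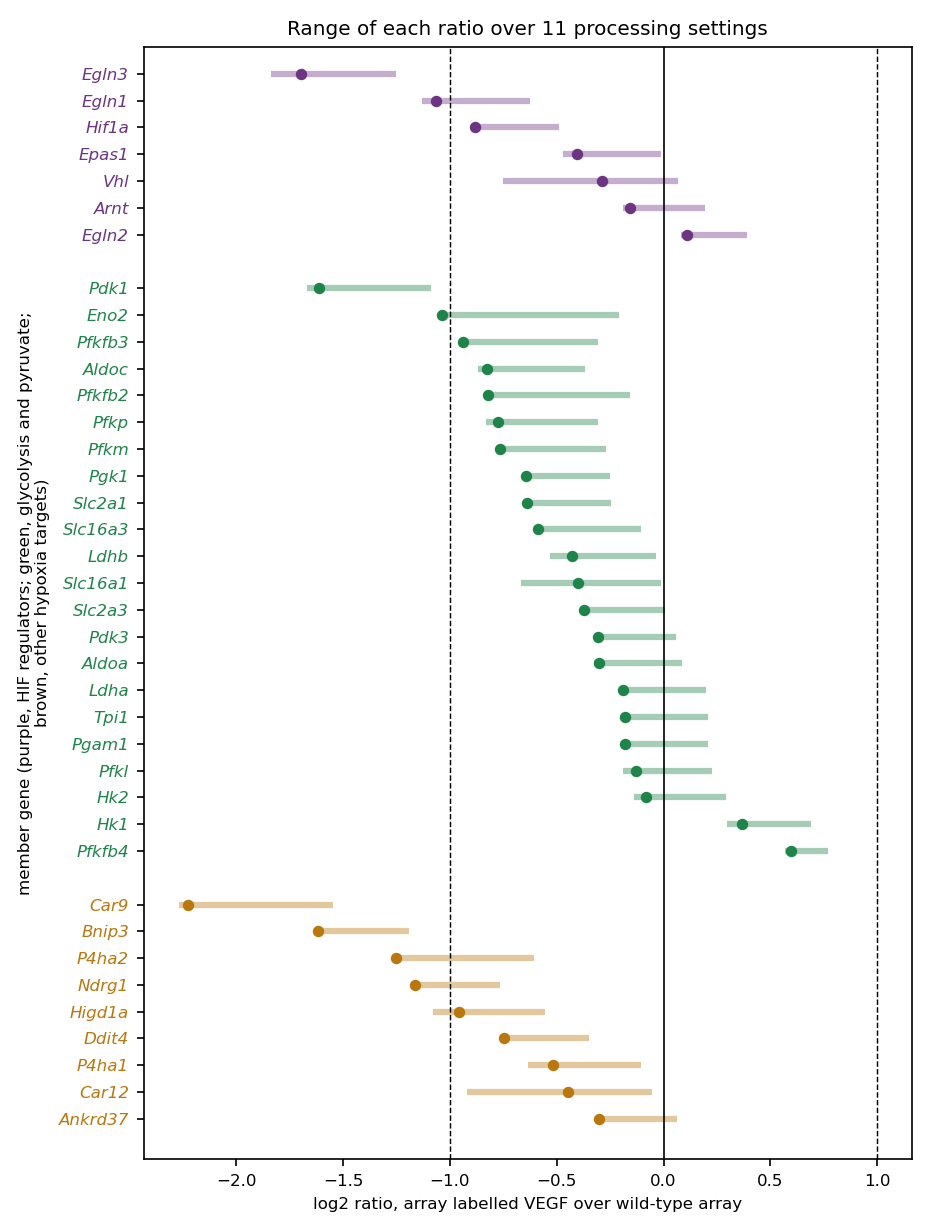
Range of each member's log2 ratio over 11 processing settings (bar) and its main value (point), with dashed lines at 2-fold. Car9, Egln3, Bnip3 and Pdk1 stay beyond 2-fold lower over their whole range, and Egln2, Hk1 and Pfkfb4 stay above 0.

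The plot of ranges shows how far each ratio depended on the processing of the same 2 arrays. It holds no spread between animals, tumours or sorts. Car9, Egln3, Bnip3 and Pdk1 were at least 2-fold lower in each of the 11 settings run. The remaining 4 of the 8 were not: Egln1 passed in 9 settings, P4ha2 in 10, Ndrg1 in 8 and Eno2 in 4 of the 10 in which it had a fold. The sign was below 0 in every setting for 24 members and above 0 in every setting for Egln2, Hk1 and Pfkfb4. It was mixed for the other 11, among them Hk2, Ldha, Tpi1, Pgam1 and Aldoa of the glycolytic chain. For those 5 the highest value, between 0.09 and 0.29, came from the setting that multiplied the VEGF-labelled array by 1.31 to equal medians.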

How the data were processed

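The authors deposited log2 signals of 1 Affymetrix array per genotype, and the submitters' processing notes name MAS5; its version and target value are not stated in them. Per the labels' protocols, 100 ng of total RNA was amplified with a 3′ kit. On the linear scale the 2% trimmed mean was 100.04 on each array.

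Of 45101 probe sets, 34958 had 1 annotated gene, 932 several and 9211 none; the 64 controls (13 of them annotated) were left out of genes. Signals were floored at the 90th percentile of 80 olfactory and vomeronasal receptor probe sets (11.3 on the VEGF-labelled and 19.8 on the wild-type array). Each gene was read by its brightest probe set (mean log2 signal); called means at least 2-fold. With 1 array above background the ratio is a bound; 12198 genes had a ratio or bound. The probe set SD came from 4885 genes. No p-value was computed. The calculation was tested on simulated data. Named were all members and, per further list, up to 4 genes at least 2-fold apart and the most strongly signalled one; Vegfa, Bhlhe40, Kdm3a and some markers were named outside this rule. Members and lists were chosen with earlier results of these data known. Python 3.11.15, pandas 2.3.3 and statsmodels 0.14.6 were used.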

Additional observations from a re-analysis of the deposited data

How the results depend on the processing

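The 10 alternatives were a floor common to both arrays, a floor at each array's median, no floor at all, matched medians plus an offset of 50, quantile, loess and median-centred scaling, each gene's median probe set ratio, exclusion of _x_at and _s_at probe sets, and a stricter signal filter. Outside the offset, the count at least 2-fold lower stayed at 7 or 8, the count higher at 0 and the median over members between -0.58 and -0.47. With the offset, which multiplies the VEGF-labelled array by 1.31, the count lower was 4 and the median -0.10, while the median of all genes moved to 0.11, a distance of -0.21 against -0.51 in the values reported. The medians of regulators, glycolysis genes and other targets were then -0.01, -0.02 and -0.56, and with each gene's median probe set ratio the regulators were at -0.75. By construction this setting raises the VEGF-labelled signals and compresses the ratios of dim genes. A limit of 1.5-fold gave 19 lower and 1 higher, where 20% and 11.6% of all genes with a fold passed. Of 372 single-gene values 340 moved by less than the probe set SD, 32 moved further and 0 turned a 2-fold difference round. Only the 8 members at least 2-fold apart as reported could be counted as turned. All 38 lay above background on both arrays, so the floor settings and the stricter filter left nearly all ratios unchanged by construction. Median-centring shifted every ratio by only 0.04. Higher genes made up 31.2% of all genes at least 2-fold apart as reported, 51.1% after quantile, 52.8% after loess and 85.9% with the offset. Counts over all genes ran from 85 to 2786 lower and 297 to 1670 higher, against 1041 and 472 as reported. Signal over background limits Eno2, Slc2a3, Slc16a3 and the Pfkfb genes, which the stricter filter removed, leaving 32 members. No paired analysis was possible because each genotype had 1 array.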
